A study of Rattus norvegicus with 54 samples.

Results

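Hearts of male Wistar rats were compared between shift workers (W) and controls (C) in the libraries that held almost no atrial RNA. A library was kept when Myl7, the atrial myosin light chain, was under 100 fpkm and Ckm, the muscle creatine kinase, was at 500 fpkm or more. The rule kept 23 of the 36 C and W rats (54 rats in the whole series), namely 11 of 18 W rats (W1, W5, W7, W11, W18 and W33 to W38) and 12 of 18 C rats (C19, C20, C21, C25, C26, C30 and C33 to C38). Fpkm (fragments scaled per length of transcript and per mapped fragment) corrects a transcript's reads for its length and for the depth of its library.

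All C and W rats were wildtype, entered the protocol at about 7 to 8 weeks of age, lived alone in a cycle of 12 h light and 12 h dark for 5 weeks, and had water and food at all hours. C rats were left undisturbed, and W rats spent their working hours in a slowly turning wheel during the light phase, when rats sleep, on weekdays. Each heart gave 1 library of poly(A) RNA and was taken at Zeitgeber time (ZT, hours after lights on) 1, 5, 9, 13, 17 or 21. All hearts were taken on a Saturday after the 5 weeks, a day without work. Nothing in the labels ties rats to a cage mate, litter or day, so p-values measure the spread between these rats. There were 2 C rats and 2 W rats at each time, except that W37 was the only W rat at ZT17. RNA came from pieces of frozen heart, crushed with atria and ventricles, and sections of the same hearts were also stained, so a library need not represent the whole heart. Fewer cells of a type and less RNA per cell cannot be told apart in any value below.

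The heart beats through cardiomyocytes, whose sarcomeres pull on Z-discs, whose ion channels carry the action potential, and whose mitochondria burn mainly fatty acids. Fibroblasts lay down collagen around them, and its build-up is called fibrosis. Heart cells also keep time through a loop in which CLOCK or NPAS2, paired with BMAL1 (gene Arntl), switches on Per, Cry, Nr1d and Dbp genes at E-boxes, and PER, CRY and REV-ERB proteins (from Nr1d1 and Nr1d2) then repress the loop. The comparison asks whether shift work with free access to food changes these programs in ventricular tissue.

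Myl7, which chose the libraries, ran from 2.31 fpkm (W38) through a median of 11.3 to 29.1 fpkm (W1) in W rats, and from 2.29 (C20) through 9.76 to 21.3 fpkm (C19) in C rats. The nearest library left out was C28 with 143 fpkm, followed by W9 with 225 fpkm, and the highest reached 20489 fpkm. Ckm was 1149 to 1911 fpkm in W rats and 1160 to 2530 fpkm in C rats, and no C or W library lay under its limit. The 13 ventricular markers summed to 41995 to 61390 fpkm in W rats and 42801 to 74479 fpkm in C rats. Sums over all genes were 426269 to 653480 fpkm in W rats and 373115 to 654902 fpkm in C rats (mean difference 33413 fpkm, 2-sided permutation test, p = 0.324). Blood and liver transcripts varied widely. The erythroid and platelet markers summed to 809 fpkm in W33 and to 131496 fpkm in W7, against 3927 to 69327 fpkm in C rats, and the liver markers to 520 fpkm in W1, against a W median of 85.1 and at most 281 fpkm (C34) in C rats. Neutrophil and mast cell markers were highest in W34 (550 fpkm) and C26 (270 fpkm).

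Other genes of the atrial list are given as values only, since the rule selected on that tissue. Nppa, which encodes atrial natriuretic peptide and is also made by stressed ventricle, ran from 39.6 through a median of 131 to 465 fpkm in W rats and from 24.7 through 72.8 to 346 fpkm in C rats. Sln, the sarcolipin that slows the calcium pump of atrial muscle, ran from 0.533 through 2.69 to 13.7 fpkm in W rats and from 1.57 through 12 to 48.9 fpkm in C rats. W34 was highest in Nppa and also in the atrial light chain Myl4 (12.7 fpkm), while its Myl7 was 13.7 fpkm, so these 3 genes did not order the libraries alike.

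No gene passed the test of level between W and C rats. Of 10257 genes, 0 passed an adjusted p of 0.05 in the exact Mann-Whitney test (smallest adjusted p = 0.182), and 314 genes (3.06%) had an unadjusted p under 0.05, of which 177 (1.73%) were higher and 137 (1.34%) lower in W rats. Limma also called 0 genes (smallest adjusted p = 0.397), with 309 (3.01%) at an unadjusted p under 0.05, 166 higher (1.62%) and 143 lower (1.39%). No gene separated the 11 W rats from the 12 C rats without overlap. The groups were large enough to bound most differences. The median standard error was 0.094 on the log2(fpkm + 1) scale, and the 95% limma interval lay within a 1.5-fold change in either direction for 9699 genes (94.6%) and within a 2-fold change for 10122 genes (98.7%). The interval holds for each gene alone and understates changes of genes near 1 fpkm.

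The gene with the smallest p was Utp11, a component of the complex that processes the RNA of the small ribosomal subunit. Its levels were 6.23 fpkm (W35), a median of 7.37, and 8.52 fpkm (W1) in W rats, against 5.24 (C20), 5.99, and 6.72 fpkm (C35) in C rats. Of the 11 W rats, 9 were above every C rat, and W35 and W7 were inside the C range. The difference was 0.26 ± 0.05 (log2, SE, n = 11 and 12), with an unadjusted exact p of 1.78e-05 and an adjusted p of 0.182. In the 13 atrium-containing C and W libraries, which the comparison did not use, the Utp11 difference was -0.16.

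The other genes that led the ranking on the higher side had an adjusted p of 1 in the exact Mann-Whitney test and are described by their values. Ptgr1, a reductase that inactivates leukotrienes and prostaglandins, was 39.2 to 64.9 fpkm in W rats (median 49.4) and 33.3 to 48.9 fpkm in C rats (median 40.6), with 6 W rats above all C rats. Rps4y2, a copy of the ribosomal protein gene Rps4x whose reads may be shared with its relatives, was 8.70 to 20.4 fpkm (median 13.9) against 4.83 to 14 fpkm (median 9.84), the widest difference of the 20 leading genes (0.51 on the log2 scale). Tfpi, the inhibitor that stops the start of clotting, was 27.2 to 36.6 fpkm against 20.1 to 39.8 fpkm, with the highest value in a C rat. Dkk3, a secreted Dickkopf family protein, was 15.3 to 25.8 fpkm against 12.1 to 23.1 fpkm. Ppp2r3c, a regulatory subunit of protein phosphatase 2A, Cmpk1, the kinase of UMP and CMP, Llph, Ctnnal1 and Eny2 completed the list, with differences of 0.14 to 0.20.

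On the lower side the list was led by Jup, the plakoglobin of desmosomes, which ran from 41.3 through 50.6 to 61.6 fpkm in W rats and from 51.5 through 56 to 69.2 fpkm in C rats. All C rats but 2 lay within the W range, while 9 of 11 W rats were below the lowest C rat. Hcn2, a pacemaker channel, ran from 10.1 (W34) through 20.4 to 23.8 fpkm in W rats and from 18.7 through 23.5 to 32.5 fpkm in C rats, a difference of -0.35 (95% interval -0.58 to -0.13). Dfnb31, the scaffold protein whirlin, ran from 5.47 to 9.17 fpkm against 7.74 to 11.9 fpkm (difference -0.35). Ivd, which breaks down leucine in mitochondria, was 65.9 to 105 fpkm against 87.6 to 138 fpkm, with 9 C rats above all W rats. Zfp703, Ap2a1, Arhgef7, Dym, Ttc39c and Elk1 had differences of -0.24 to -0.17. Since these genes were picked by this contrast, their order and direction carry no support of their own.

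**Figure D1:**
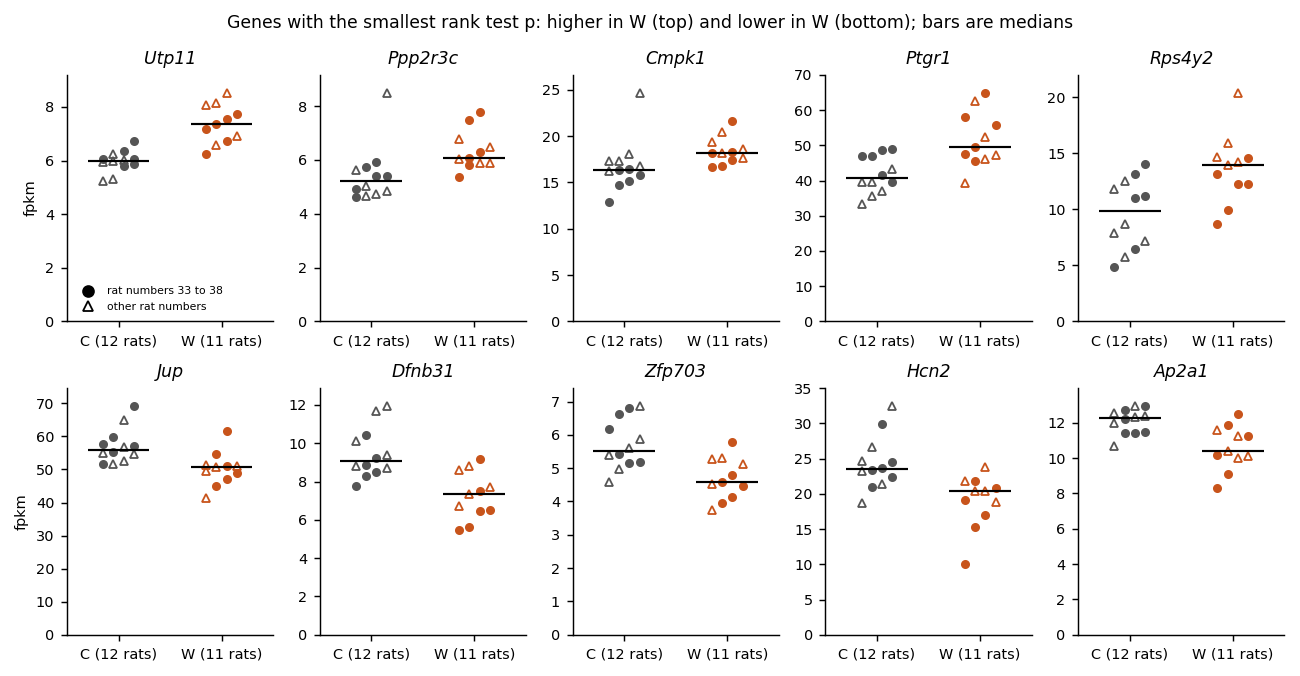
Fpkm of the 5 genes with the smallest exact Mann-Whitney p among those higher (top row) and lower (bottom row) in W rats, 1 point per rat (filled circles, rat numbers 33 to 38, open triangles, other numbers, bars, medians). In Utp11 and in Jup 9 of 11 W rats lie outside the C range, in the other 8 genes fewer do, and no gene passed the adjustment.

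The atrium-containing rats (6 C and 7 W) offered values for the same genes from other animals. Of the 10 leading genes on the higher side, 2 (Ptgr1 and Llph) were also higher in atrium-containing W rats, where 26.2% of all genes were, and of the 10 on the lower side, 8 were also lower there, where 73.8% of all genes were. The exceptions on the lower side were Dfnb31 and Hcn2. Limma called 0 genes in the atrium-containing rats alone (4.41% at an unadjusted p under 0.05) and 0 in all 36 rats (2.3%). A limma interaction between group and kind of library called 0 genes, with 240 (2.34%) at an unadjusted p under 0.05.

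Over all genes, 59.2% of differences W minus C were above 0 and 40.8% below in the 23 rats, and the counts of list members stand beside these shares. Counts of members at an unadjusted exact p under 0.05 stand beside a share of 3.06% over all genes (1.73% higher and 1.34% lower in W rats). Within rat numbers 33 to 38 and within the other numbers, the median over all genes was 0.01 and 0.007. Most contractile and fuel genes had a difference slightly under 0 over the 23 rats, with a direction that for some lists depended on the rat numbers (33 to 38 in both groups, or other). Of 34 sarcomere and Z-disc genes, 25 were below 0 (median -0.07, against 0.02 over all genes), and 3 had an unadjusted exact p under 0.05, all lower in W rats. These were Ldb3, which holds Z-discs together (253 to 389 against 309 to 420 fpkm), Actn2, the alpha-actinin of the Z-disc (376 to 652 against 479 to 653 fpkm), and Myom1, which links thick filaments (85.5 to 126 against 98.8 to 127 fpkm). In each the W range reached lower and the upper ends were close. Of 20 citric acid cycle genes, 19 were below 0 (median -0.09), with Got2 alone at an unadjusted p under 0.05. Of 28 genes of glycolysis and glucose uptake, 23 were below 0 (median -0.07), and Gys1 (glycogen synthase), Pygm (glycogen phosphorylase) and Pfkm (phosphofructokinase) were lower at an unadjusted p under 0.05, by -0.18, -0.19 and -0.15. None of the 34 genes of fatty acid use had an unadjusted p under 0.05 (24 below 0, median -0.06). All members of these lists had an adjusted p above 0.05. In rats 33 to 38 and in the other rats, 8 and 16 of the 34 sarcomere genes were above 0 (medians -0.15 and -0.01), as were 5 and 18 of the 28 glycolysis genes (medians -0.19 and 0.03) and 20 and 4 of the 34 fatty acid genes (medians 0.01 and -0.17). The glycolysis and fatty acid lists thus had opposite signs in the 2 sets, and the citric acid cycle had 3 of 20 genes above 0 in each.

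Among 26 ion channel genes, 17 were below 0 (median -0.05), with 15 above 0 in rats 33 to 38 (median 0.03) and 2 above 0 in the other rats (median -0.11), and Hcn2 and Scn4b were among those lower at an unadjusted p under 0.05. Scn4b, the beta-4 subunit of sodium channels, ran from 15.4 through 19.9 to 34.3 fpkm in W rats and from 16.7 through 28.3 to 41.9 fpkm in C rats (difference -0.49, 95% interval -0.76 to -0.22). Adra1d, an alpha-1 adrenergic receptor, was the 1 gene of 21 autonomic receptor and adenylyl cyclase genes at an unadjusted p under 0.05 (0.762 to 3.11 against 1.78 to 5.97 fpkm). Casq1, the calsequestrin of skeletal muscle, was the 1 gene of 19 calcium cycling genes (6.77 to 15 against 8.36 to 26.9 fpkm). Over all genes 3.06% had such a p, and 1 of 21 and 1 of 19 genes lay near that share.

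Genes of the cytosolic ribosome had nearly all the same sign over the 23 rats. Of 81 cytosolic ribosomal protein genes, 80 were above 0 (median 0.15, against 59.2% of all genes above 0). Of the 81, 1 gene, Rps4y2, had an unadjusted exact p under 0.05, where 3.06% of all genes had one. Rps3a was 489 to 853 fpkm against 427 to 695 fpkm. The sign was not shared by the rats with numbers 33 to 38, in which 33 of the 81 genes were above 0 (median -0.01), while in the other rats all 81 were (median 0.30).

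None of the 8 genes that the study followed for fibrosis, growth and inflammation passed the adjusted test. Ccl9, a chemokine that draws macrophages, ran from 1.23 through 1.95 to 4.14 fpkm in W rats and from 0.790 through 1.33 to 3.08 fpkm in C rats. The highest W rats were W1, W7 and W11, all above the highest C rat, and W33 to W38 lay inside the C range. The difference was 0.40 (95% interval 0.08 to 0.72, unadjusted exact p = 0.0268, adjusted p = 1). Igf1, the growth factor, was 9.02 to 27.5 fpkm against 4.21 to 29.2 fpkm (difference 0.26, 95% interval -0.20 to 0.72). Col1a1 and Col1a2, the chains of collagen I, were 16 to 69.7 against 26.7 to 57.4 fpkm and 14.9 to 48 against 22.5 to 40.5 fpkm. Their differences were 0.04 (95% interval -0.34 to 0.42) and -0.08 (-0.40 to 0.23). For Thy1, S100a4, Agt and Ctsk the differences were -0.01, 0.23, 0.07 and 0.06, with intervals that held 0. Over 37 collagen and matrix genes, 28 were above 0 (median 0.06, against 59.2% and a median of 0.02 over all genes), with Postn, the matrix protein periostin, alone at an unadjusted p under 0.05 (0.968 to 3.89 against 0.799 to 2.24 fpkm). Of 12 fibroblast markers, 8 were above 0 (median 0.02), near the share over all genes, again with Postn alone. An unadjusted exact p under 0.05 was held by 3.06% of all genes.

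**Figure D2:**
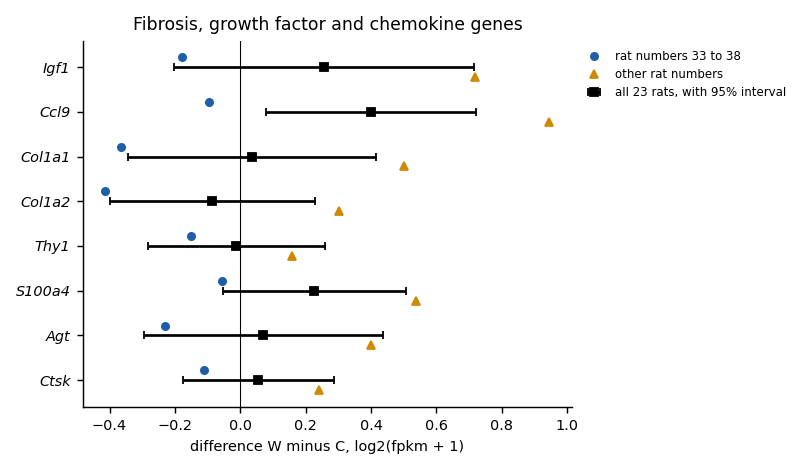
Difference W minus C on the log2(fpkm + 1) scale for 8 genes the study followed, with the 95% limma interval over all 23 rats (squares) and the differences within rat numbers 33 to 38 (circles) and other numbers (triangles). Only the Ccl9 interval excludes 0, and in all 8 genes the circle lies left of 0 and the triangle right of it.

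Immune and stress lists showed few differences. Of 19 chemokine genes, 17 were above 0 (median 0.15), against 59.2% of all genes. Ccl9 was the 1 chemokine gene at an unadjusted exact p under 0.05, where 3.06% of all genes were. In the lists of antigen presentation (17 genes), interferon response (22), complement (17), heat shock (25), immediate early genes (23), endoplasmic reticulum stress (23), proteasome (38) and hypertrophy (24), no gene reached an unadjusted p under 0.05. Of the 12 macrophage, 7 T cell and 12 endothelial markers none did either, with the first 2 medians at 0.06 and 0.14. The 10 liver markers were all above 0 (median 0.66), with no unadjusted p under 0.05, and W1 and W7 held the most.

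The W and C rats fell into 2 sets by rat number, and the median difference of many lists had the opposite sign in the other set. Numbers 33 to 38 occurred in both groups (6 W and 6 C rats, 1 of each at each time), and 5 W and 6 C rats had other numbers. What a number stands for was not given in the sources used here. The paper reported that clock genes of W rats peaked out of phase in a single replicate rhythm. The rats of that replicate rhythm were not named in the text used here. Across genes, the differences W minus C of the sets, which share no rat, had a Pearson correlation of -0.23, and 39.9% of genes had the same sign in both. The median difference of 35 of 48 lists had opposite signs. Over all genes the median was 0.01 in rats 33 to 38 and 0.007 in the others. For complex I of the respiratory chain, 1 of 34 genes was above 0 in rats 33 to 38 (median -0.23) and 29 in the others (median 0.21). Genes above 0 numbered 3 and 36 of 41 in complexes III and IV and ATP synthase. They numbered 3 and 64 of 71 among proteins of the mitochondrial ribosome, 4 and 34 of 38 in the proteasome, and 13 and 35 of 37 in collagen and matrix. The ventricular markers had medians of -0.26 and 0.13, fibroblast markers -0.15 and 0.24, erythroid and platelet markers -0.66 and 0.86, and liver markers -0.32 and 1.60. The citric acid cycle was below 0 in both sets (-0.12 and -0.06). All 20 leading genes kept their sign in both, which their choice over these same rats favoured in advance. A limma interaction between group and set called 0 genes, with 959 (9.35%) at an unadjusted p under 0.05. Within each set limma called 0 genes, with 711 (6.93%) and 629 (6.13%) at an unadjusted p under 0.05. Values also varied by set within each group. Ndufv1 of complex I was 527 to 716 fpkm in C33 to C38 and 432 to 594 fpkm in other C rats. In W33 to W38 it was 398 to 602 fpkm, and in other W rats 420 to 506 fpkm. First principal component scores (widest spread, 32.0% of variance) were -8.21 to 29.2 in C33 to C38 and -23.9 to 7.03 in other C rats. In W33 to W38 they were -8.64 to 11.6, and in other W rats -12.2 to -2.64. Which group carried the opposite signs was not tested.

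**Figure D3:**
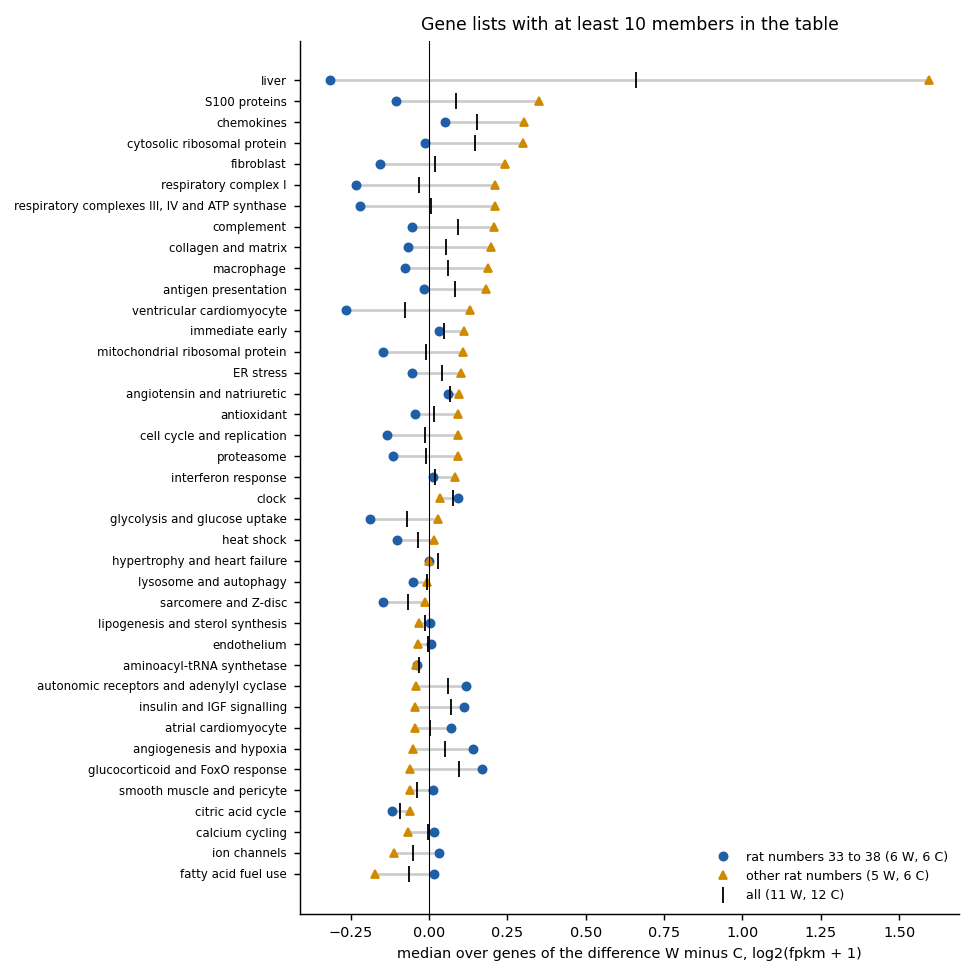
Median over genes of the difference W minus C, log2(fpkm + 1), for the 39 lists with at least 10 genes in the table, in rat numbers 33 to 38 (circles), other rat numbers (triangles) and all 23 rats (black ticks). Liver, respiratory chain, ribosomal protein and collagen lists have circles and triangles on either side of 0 or far apart.

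W and C rats differed in the time course of clock genes, a test chosen after the values by time had been seen. In level, 0 of the 15 clock genes in the table had an unadjusted exact p under 0.05. Arntl, the partner of CLOCK, stood at 14.0 fpkm (C25) and 11.5 fpkm (C33) at ZT1 and at 7.15 (C26) and 9.99 fpkm (C34) at ZT5 in C rats, and at 0.163 to 0.954 fpkm in the 4 C rats at ZT13 and ZT17. W36 at ZT13 and W37 at ZT17 held 8.94 and 9.68 fpkm, and W34 and W18 at ZT5 held 0.908 and 1.73 fpkm. W1 at ZT1 (12.9 fpkm), W5 at ZT9 (1.15) and W11 at ZT21 (6.83) lay near the C rats of their hour, and so did W7 at ZT13 (0.539 fpkm). The W rats far from the C rats of their hour in Arntl were W18, W33, W34, W36 and W37.

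Per2, a repressor of the loop, mirrored this pattern. At ZT5 it was 10.3 fpkm in W34 and 8.92 fpkm in W18 against 1.42 and 0.649 fpkm in C rats, and at ZT17 it was 0.902 fpkm in W37 against 10.9 and 6.2 fpkm. Fitted with a 24 h cosine, its peak was at ZT15.5 in C rats and ZT6.7 in W rats (limma F test of the group by cosine and sine terms, adjusted p = 0.0153). Tef, a PAR bZIP output factor of the clock, peaked at ZT13.9 and ZT7.6 (adjusted p = 0.0431), and Arntl at ZT1.4 and ZT19.8 (adjusted p = 0.0469). Per2, Tef and Arntl were the 3 of 15 clock genes past the adjusted threshold, and 13 of 15 had an unadjusted p under 0.05, where 8.72% of all genes had one. All 15 fitted peaks were earlier in W rats, taking the shorter way round the day. Without W33 to W38, which left 5 W rats and none at ZT17, 4 of the 15 (Arntl, Per2, Tef and Ciart) had an unadjusted p under 0.05, 13 peaked earlier and 2 (Cry1 and Bhlhe40) later in W rats. Within rats 33 to 38 alone, 14 had an unadjusted p under 0.05 and all 15 peaked earlier. The Arntl peak was 9.05 h earlier in rats 33 to 38 and 2.23 h earlier without W33 to W38. For Tef the advance was 8.63 and 3.45 h, and for Per2 9.67 and 6.75 h. Of the 5 W rats left without W33 to W38, W18 was the only 1 at ZT5. Per2 in W1 (1.35 fpkm), W5 (4.52) and W11 (3.18) lay near the C rats of their hour. W7 held 4.58 fpkm at ZT13, against 8.04 and 6.44 fpkm in C rats. The fit without W33 to W38 kept all 12 C rats, and the fit within rats 33 to 38 used 6. Neither the part of W18 nor the difference between the fits was tested. Dbp, another PAR bZIP factor, had an unadjusted p of 0.00287 and an adjusted p of 0.165 from the limma F test (peaks at ZT11.1 and ZT6.4), and Nr1d1, the gene of REV-ERB alpha, 0.000938 and 0.103 (ZT8.4 and ZT4.4).

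**Figure D4:**
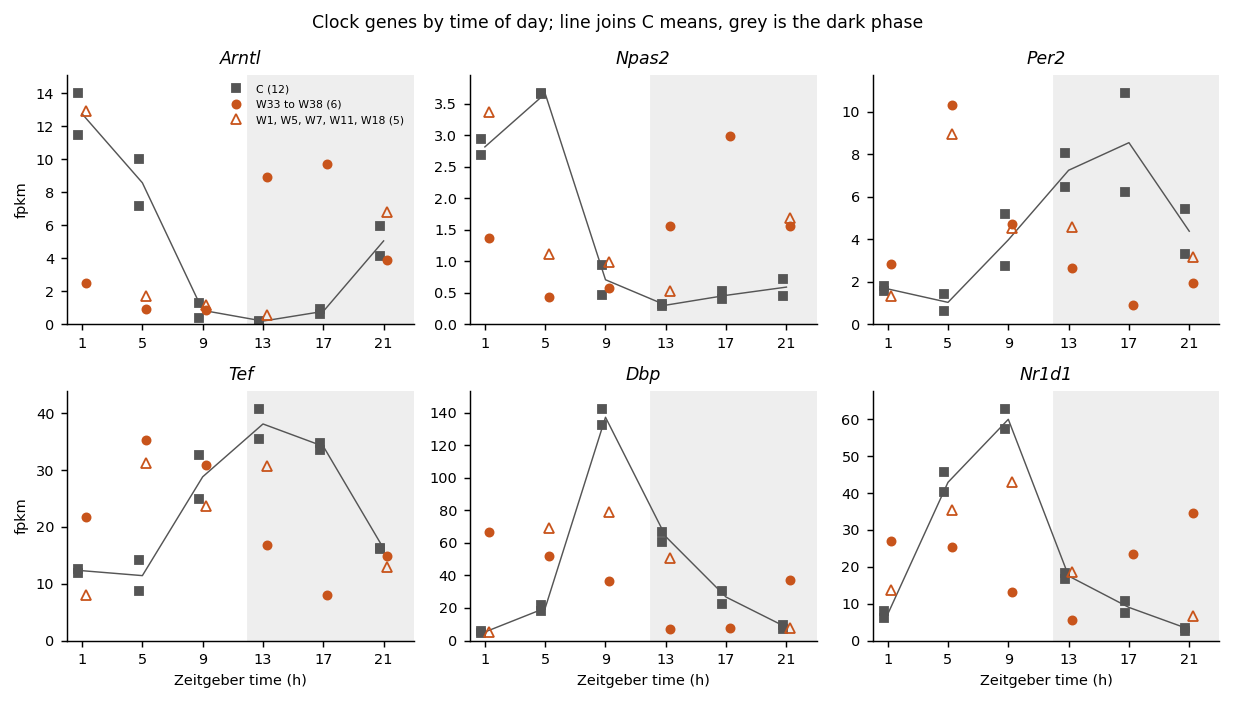
Fpkm of 6 clock genes by Zeitgeber time in C rats (squares, line through the means), W33 to W38 (filled circles) and the other 5 W rats (triangles), with the dark phase in grey. Arntl in W36 and W37 is at 8.94 and 9.68 fpkm where C rats are under 1 fpkm, and W1, W5, W7 and W11 lie near the C rats in Arntl.

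The promoters of Per2, Tef, Rhobtb1 and Arntl are shown because these genes differed in rhythm and their upstream sequence holds a motif of the clock. Each is the 250 bases before the gene's start, 5′ to 3′ on the gene's strand, from RefSeq on build GRCr8, and capitals mark the motif. Searched on both strands were the E-box CACGTG, the D-box, at which TEF and DBP act, as TTATGTAA with its reverse complement TTACATAA and as TTACGTAA, and the site AGGTCA with its reverse complement TGACCT, used by ROR and REV-ERB proteins. The E-box and the last D-box form read alike on both strands, and no motif searched overlaps another in these windows.
Per2 (chr9:99496994-99497243, minus strand, D-box): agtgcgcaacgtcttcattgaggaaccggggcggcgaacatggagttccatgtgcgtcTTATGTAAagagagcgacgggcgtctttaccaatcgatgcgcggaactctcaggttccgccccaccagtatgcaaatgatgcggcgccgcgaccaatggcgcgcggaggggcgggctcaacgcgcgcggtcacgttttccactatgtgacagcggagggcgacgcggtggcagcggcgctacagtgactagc
Tef (chr7:115206577-115206826, plus strand, E-box): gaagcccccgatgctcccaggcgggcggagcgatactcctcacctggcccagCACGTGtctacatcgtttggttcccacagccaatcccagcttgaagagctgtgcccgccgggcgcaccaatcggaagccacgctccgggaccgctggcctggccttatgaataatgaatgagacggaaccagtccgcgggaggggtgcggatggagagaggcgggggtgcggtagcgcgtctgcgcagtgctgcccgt
Rhobtb1 (chr20:19402058-19402307, minus strand, E-box): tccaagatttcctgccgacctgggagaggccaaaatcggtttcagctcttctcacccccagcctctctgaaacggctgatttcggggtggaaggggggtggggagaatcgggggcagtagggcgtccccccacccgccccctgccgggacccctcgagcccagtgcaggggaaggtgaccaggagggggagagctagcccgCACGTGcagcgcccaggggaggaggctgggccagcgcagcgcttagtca
Arntl, named Bmal1 in RefSeq (chr1:176766078-176766327, plus strand, AGGTCA): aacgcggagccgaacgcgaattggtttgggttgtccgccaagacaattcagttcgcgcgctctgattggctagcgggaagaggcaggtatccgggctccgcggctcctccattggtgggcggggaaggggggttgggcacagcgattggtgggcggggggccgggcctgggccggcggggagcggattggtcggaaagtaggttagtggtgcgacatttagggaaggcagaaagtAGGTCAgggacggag

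The Per2 D-box began 192 bases before the start, the Tef and Rhobtb1 E-boxes 198 and 49 bases before it, and the Arntl AGGTCA 15 bases before it. Of the 38 genes with a different rhythm, 33 had a promoter in the table, of which 3 (Rhobtb1, Tef and Slc41a3) held an E-box (9.09%, against 5.59% of 33469 promoters), 2 (Per2 and Coq10b) a D-box (6.06% against 0.932%) and 1 (Arntl) the ROR and REV-ERB site (3.03% against 14.1%). These are matches of letters in a short window.

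Over all genes, the rhythm of 38 (0.37%) differed between W and C rats at an adjusted p of 0.05, and 894 (8.72%) did at an unadjusted p under 0.05. Of the 38, 32 peaked in the dark phase in C rats (ZT13.5 to ZT21.4) and between ZT4.6 and ZT8.8 in W rats, and the other 6 (Arntl, Gstcd, Rab20, Sh3bp5, Slc41a3 and Tmem171) peaked between ZT0.5 and ZT6.2 in C rats and between ZT17.3 and ZT20.2 in W rats. The fitted amplitude was smaller in W rats for 28 of the 38, in a fit that pooled W rats of differing peak times. For Arntl the fitted W peak was at ZT16.9 in rats 33 to 38 and at ZT23.2 without W33 to W38. The part of this pooling in the amplitude was not tested. None of them differed in level at an unadjusted p under 0.05, and 34 belonged to no list, clock list included.

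Rhobtb1, which encodes a protein with BTB domains, had the smallest unadjusted p. It stood at 3.02 to 5.01 fpkm in the 4 C rats at ZT1 and ZT5 and at 20.7 to 25.2 fpkm in those at ZT13 and ZT17, while W34 and W18 held 26 and 20 fpkm at ZT5 and W37 held 3.74 fpkm at ZT17. The peak was at ZT14.9 in C rats and ZT7.3 in W rats (limma F test, adjusted p = 0.0153). Amd1, which makes the aminopropyl donor of polyamine synthesis, was 69.3 fpkm in W34 and 49.8 fpkm in W18 at ZT5, against 28 and 19.9 fpkm in C rats. Bcl2l1, which encodes the survival protein BCL-XL, was 29.8 and 23.7 fpkm there against 10.9 and 10.7 fpkm. P4ha2, a subunit of the enzyme that hydroxylates proline in collagen, was 16 and 14 fpkm against 6.24 and 6.47 fpkm. In each of these 4 genes both W rats at ZT5 lay above both C rats of that hour, and W37 lay below both C rats at ZT17.

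Some of the 38 genes act in metabolism and are named here. The lists of fatty acid use (34 genes), glycolysis (28) and the citric acid cycle (20) held 0 of the 38. The list of lipogenesis and sterol synthesis (19 genes) held 1, Dgat2. Ppard, a nuclear receptor for fatty acids, peaked at ZT15.5 in C rats and ZT7.1 in W rats (limma F test, adjusted p = 0.0395), Dgat2, which makes triglycerides, at ZT14.5 and ZT7.5 (adjusted p = 0.0395), and Slc25a25, a mitochondrial ATP and phosphate carrier, at ZT15.7 and ZT5.2 (adjusted p = 0.0222). Noct, a phosphatase that acts on NADP(H), peaked at ZT16.7 and ZT7.4 (adjusted p = 0.0236), and Coq10b, which serves coenzyme Q, at ZT15.6 and ZT7.1 (adjusted p = 0.0426).

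**Figure D5:**
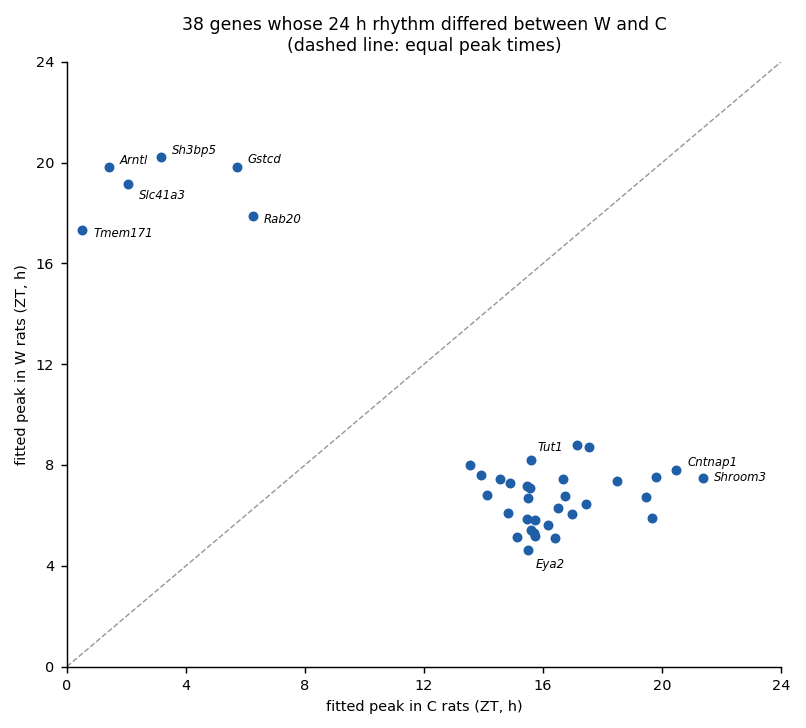
Fitted peak time in W rats against that in C rats for the 38 genes whose 24 h rhythm differed (limma F test, adjusted p of at most 0.05). In C rats 32 peak in the dark phase and in W rats the same 32 peak between ZT4.6 and ZT8.8, while 6 genes lie at the upper left.

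The calls rested on few rats. With W33 to W38 left out, 0 genes were called (352 at an unadjusted p under 0.05, 3.43%), and 35 of the 38 kept an unadjusted p under 0.05. With the 12 rats of numbers 33 to 38 alone, 57 genes (0.556%) were called, of which 10 were among the 38. Leaving out C34, W18, W34 or W37 each ended all calls, and leaving out W1 gave 109. With all 36 C and W rats 0 genes were called, and 29 of the 38 had an unadjusted p under 0.05, where 3.63% of all genes had one. All these fits reused rats from which the 38 were picked, so their small p-values there carry no support of their own. Blood, liver and neutrophil transcripts varied among the same rats, with W33 lowest in erythroid markers and W34 highest in neutrophil and mast cell markers, and their part in the rhythm difference was not tested.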

How the data were processed

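RNA of 54 rat hearts had been sequenced by the authors as directional poly(A) libraries, aligned to rn6 with TopHat2 and quantified with Cufflinks (versions not given in the sources used here). The deposited fpkm table holds 10257 genes, each above 1 fpkm in at least 18 of 54 libraries. Fpkm does not hold counts, so the depth of each library is unknown, and the number of rats limits the precision.

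Group and time were read from the sample titles. C and W libraries with Myl7 under 100 fpkm and Ckm of 500 fpkm or more were compared (11 W and 12 C), with no rescaling. Levels were tested by the exact 2-sided Mann-Whitney test on fpkm with Benjamini-Hochberg adjustment over all genes (scipy 1.17.1), called at an adjusted p of at most 0.05. Sizes, standard errors and 95% intervals were fitted to log2(fpkm + 1), which understates changes of low genes, by limma 3.58.1 under R 4.3.3, its variance following a trend. Rhythm differences were tested with a limma F test of group by cosine and sine terms (24 h), added after the values by time had been seen, as was the comparison of the rat numbers. Sums of fpkm were compared over 100000 permutations. The code was tested on simulated data. Python 3.11.15, numpy 2.4.6, pandas 2.3.3 and matplotlib 3.10.9 were used.

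The members, the 48 gene lists (16 of cell type markers, 32 of pathways) and the tests were chosen with earlier results of these data known. Genes of the atrial list were left out of the other lists. In all, 261 entries repeat another entry. Named were all genes called (0 for level) and, to fill up, 10 genes per direction with the smallest Mann-Whitney p, ties by limma p (mean of at least 5 fpkm, no placeholder symbol), up to 3 genes of each list with the smallest p, the markers, Myl7, Ckm and 8 genes the study followed. The genes with a different rhythm were named after their values were seen. Alternatives were another scaling, pseudocount, filter, Myl7 or Ckm limit, time as a factor, a replicate block, and leaving out each rat and each run of rat numbers. Not every gene that the naming rule picked is reported here.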

Additional observations from a re-analysis of the deposited data

Results flagged for a closer look

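The difference between W and C rats varied with time of day in 38 genes (limma F test of group by cosine and sine terms, adjusted p of at most 0.05), so the contrast changed between time points. Among clock genes the adjusted p was 0.0153 for Per2, 0.0431 for Tef and 0.0469 for Arntl. The Arntl peak was 5.59 h, the Tef peak 6.31 h and the Per2 peak 8.81 h earlier in the fit over all 11 W rats. Without W33 to W38 (5 W rats, with W18 alone at ZT5, and all 12 C rats) these advances were 2.23, 3.45 and 6.75 h. Within rats 33 to 38 (6 W and 6 C rats) they were 9.05, 8.63 and 9.67 h. These fits were not tested against each other. Each time of day held at most 2 W and 2 C rats. Beyond leaving out each rat in turn, the groups of 11 and 12 rats were not searched for single outlying rats.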

How the results depend on the processing

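The count of 0 genes differing in level held under every alternative run. These were limma, median-of-ratios scaling, a mean of at least 5 fpkm, copies counted once, Myl7 under 50 or 200 fpkm, Ckm of 1000 fpkm or more, all C and W libraries, leaving out each rat, and leaving out each run of rat numbers. Genes at an unadjusted exact p under 0.05 numbered 222 to 563 (without C26) when 1 rat was left out, and 1184 without C25 to C30, 1081 without C33 to C38 and 750 without W33 to W38. W21 was not atrium-poor, so leaving it out gave no value. The count of 0 from the interaction with the kind of library also held, with 87 to 907 genes at an unadjusted p under 0.05 when 1 rat was left out, the most without C28. The difference in the sum of fpkm was 21806 in all C and W libraries (permutation test, p = 0.402).

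For the replicate block over rat numbers 33 to 38, 0 genes were called with the block and 0 without it, with 1315 and 711 at an unadjusted p under 0.05. Each of these numbers stood for the same time of day in both groups, so the block was also a time factor. Pairing and time cannot be told apart in it. Same-numbered rats deviated together in 2 of 6 pairs (correlations -0.40 to 0.29, 1 rat best matched by its own number), and equal numbers were therefore not treated as pairs.

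The rhythm count of 38 was 0 in all C and W libraries, 15 without C17 to C22, 0 without C25 to C30, C33 to C38, W17 to W22 (that is, W18) or W33 to W38, and 126 without W1 to W11. It ran from 0 to 109 when 1 rat was left out, was 0 in 4 of 23 cases (C34, W18, W34 and W37), and stayed within 1.5 times the count in 3 (C19, C20 and W35). Scaling, pseudocount, filter, copies, a Myl7 limit of 200 fpkm and rats 33 to 38 alone gave 36 to 57. The cause was not tested.

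The 20 leading genes kept their direction under all these alternatives, which was favoured in advance because they were picked in these same rats. In the atrium-containing rats alone, 2 of the 10 genes on the higher side and 8 of the 10 on the lower side kept it. The study's genes, not picked that way, changed direction under some of the alternatives. In rats 33 to 38, with or without the block, the differences were -0.18 for Igf1, -0.10 for Ccl9, -0.37 for Col1a1, -0.057 for S100a4, -0.23 for Agt and -0.11 for Ctsk. Without C17 to C22 they were -0.0075 for Igf1, -0.057 for Col1a1 and 0.0028 for Thy1. Without W1 to W11 they were -0.23 for Col1a1, -0.11 for Agt and -0.054 for Ctsk. Without W33 to W38 they were 0.26 for Col1a2 and 0.17 for Thy1, and without W18 0.017 for Thy1. In all C and W libraries they were -0.074 for Col1a1 and -0.058 for Ctsk. Leaving out 1 rat gave -0.037 (W1) to 0.17 (W34) for Col1a1, -0.15 (W1) to 0.0091 (W34) for Col1a2, -0.070 (W1) to 0.085 (W34) for Thy1 and -0.034 (W1) to 0.14 (C34) for Agt.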
